A study of Danio rerio with 5 samples.

Results

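Of the 9559 different circular RNAs (circRNAs) listed in whole zebrafish embryos at 5 ages, 2182 used a back-splice end that at least 1 other circRNA also used. They were found by position alone. All circRNAs of the 5 libraries were pooled, those spanning 500 to 100000 bp and lying outside chromosome 4 were kept (8017), and a circRNA was counted where its chromosome and start, or its chromosome and end, were identical to those of another kept one. The share was 27.2% of the kept circRNAs (exact Clopper-Pearson 95% interval 26.2 to 28.2, which treats circRNAs as units). The embryos were wild type, of the strain written Tubingenz in the labels, and untreated. Total RNA depleted of ribosomal RNA gave 1 library per stage: the blastula at 4.5 hours after fertilization (hpf), the gastrula at 8 hpf, segmentation at 24 hpf, and the stages the labels call throat, at 48 hpf, and incubation, at 72 hpf. The sources used here do not give the number of embryos behind a library. With 1 library per stage no difference between stages has a replicate check. Intervals of read shares and read ratios cover counting error only, and those over circRNAs or sets take these as units.

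A circRNA forms when the spliceosome joins a downstream 5′ splice site to an upstream 3′ splice site, which closes the exons between them into a ring. The same splice site can be used with more than 1 partner, so that a locus gives several rings with 1 common junction end and 1 variable end. This is called alternative back-splicing, and it is common in animal circRNA catalogues. On the forward strand the start of a circRNA lies at the 3′ splice site and its end at the 5′ splice site, and on the reverse strand the roles are swapped. The tables carry no strand, so the 2 kinds of end are called only start and end here. Host genes, tissue markers and splice-site sequences were not analysed here, and positions are those of the deposited tables. The sources used here do not name their genome build.

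The 5 libraries held 20410, 24580, 9563, 15850 and 19036 junction reads from 4.5 to 72 hpf. By the scaling in the authors' table the 8 hpf library was the deepest and the 72 hpf library the shallowest, 1.40 times apart. No table lists a count below 2 reads, so absence from a library means fewer than 2 reads or removal by a filter that is not described. The circRNAs that share an end took 38.4%, 31.2%, 31.4%, 32.9% and 24.7% of the reads on kept circRNAs from 4.5 to 72 hpf. Single circRNAs weighed on some of these shares. At 4.5 hpf 1 circRNA on chromosome 22 had 830 of their 6199 reads. On scaffold KN150127.1, 1 had 1275 of 4361 at 48 hpf and another 565 of 3744 at 72 hpf.

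The shared ends formed 1112 sets, a set being all kept circRNAs that use 1 given start or 1 given end. A start was shared in 524 sets and an end in 588. Most sets were pairs, 974 of the 1112 (87.6%). A further 105 sets held 3 circRNAs, 23 held 4, 8 held 5, 1 held 6 and 1 held 9. Of the 2182 circRNAs, 906 shared only their start, 1048 shared only their end and 228 shared each of them with a different partner. Linking circRNAs through any shared end joined the sets into 891 networks, of which 649 were pairs and 32 held 5 or more circRNAs.

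The variable ends of a set usually lay kilobases apart. Over 1298 distances between neighbouring variable ends the median was 9209 bp, with quartiles of 3778 and 21338 bp. The distance was at most 1000 bp in 121 cases (9.32%) and at most 10 bp in 23 (1.77%). The smallest distance was 3 bp, seen 8 times, and none was 1 or 2 bp. Ends a few bases apart are a small part of the sets: counting ends within 5 bp as shared gave 1133 sets.

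**Figure D1:**
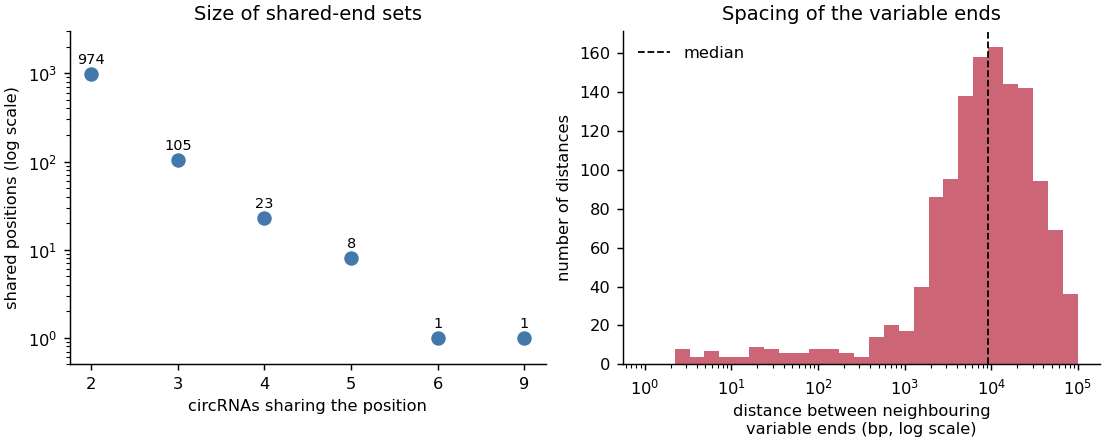
Left, number of shared positions (log scale) by the number of circRNAs that use the position, with the count above each point. Right, histogram of the distance in bp (log scale) between neighbouring variable ends within a set. Pairs made up 974 of 1112 sets, and the median distance, the dashed line, was 9209 bp.

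The circRNAs with a shared end were spread over the genome. On the 24 numbered chromosomes kept, 27.2% of circRNAs shared an end (26.2 to 28.2), and on 84 unplaced scaffolds 28.3% did (20.7 to 37.0). By chromosome the share ran from 18.4% on chromosome 18 (13.6 to 23.9) and 19.9% on chromosome 13 (15.7 to 24.6) to 31.0% on chromosome 25 (25.5 to 36.9). At the limits of the rule, the shortest circRNA counted spanned 509 bp and the longest 99857 bp. The nearest circRNAs left out that used an end of a kept one spanned 497 bp and 100070 bp.

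In each library the circRNAs with a shared end spanned more of the genome than the other kept circRNAs. Their median span, introns included, was 13096.5, 12860, 10259.5, 7778.5 and 7318 bp from 4.5 to 72 hpf. That of the other kept circRNAs was 7387.5, 6019, 5546, 4898 and 5197 bp. The difference was positive in 5 of 5 libraries and averaged 4453 bp ± 1953 (SD, n = 5 libraries). The exact two-sided sign-flip permutation test over libraries gave p = 0.0625 (n = 5), the smallest p that 5 libraries allow. Span is computed from the start and end positions that the rule also used. It is therefore not a separate measurement, and the difference describes the circRNAs without supporting the rule.

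They were also listed again in other libraries more often. Of the circRNAs with a shared end, 41.9%, 43.1%, 57.7%, 49.1% and 49.7% of those in the 4.5, 8, 24, 48 and 72 hpf libraries were listed in at least 2 libraries. The other kept circRNAs reached 31.2%, 32.6%, 43.7%, 35.1% and 36.8%. The difference averaged 12.4 percentage points ± 1.72 (SD, n = 5 libraries) and was positive in 5 of 5, with an exact sign-flip permutation p = 0.0625, again the smallest possible. A circRNA listed in several libraries enters several of the 5 differences, here as well as for span and for reads. The 5 differences are therefore not independent, as the test takes them to be. Pooled, 37 of the 91 kept circRNAs listed in all 5 libraries shared an end (40.7%), against 1624 of the 6442 listed in 1 library (25.2%).

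Their read counts did not separate them from the rest. Mean reads per listed circRNA were 8.66 against 6.03 for the others at 4.5 hpf and 7.93 against 5.69 at 48 hpf. At 8 and 24 hpf they were 5.16 against 5.23 and 5.22 against 5.10, and at 72 hpf 7.13 against 8.20. The mean difference was 0.768 reads ± 1.59 (SD, n = 5 libraries), positive in 3 of 5 (exact sign-flip permutation p = 0.375), and without the scaffolds it was -0.0368. The median total over the 5 libraries was 3 reads in each class.

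**Figure D2:**
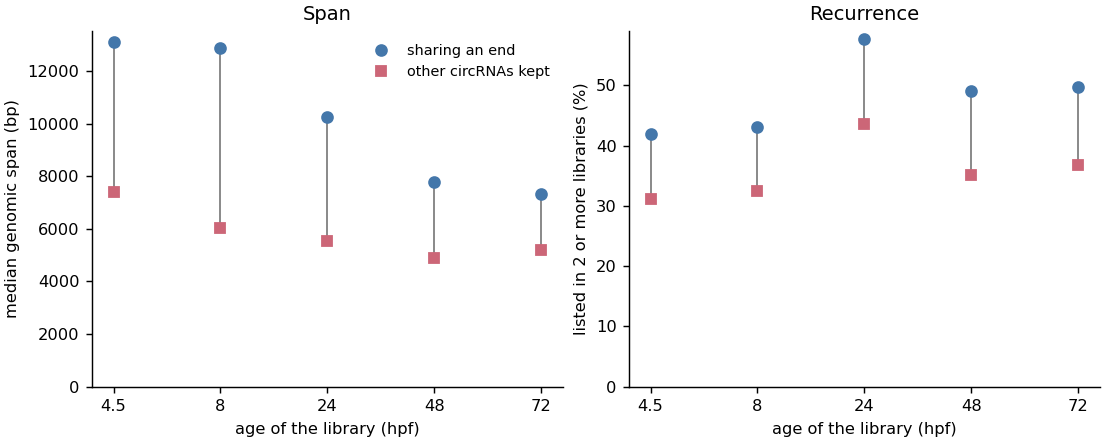
Median genomic span in bp (left) and percent of circRNAs listed in 2 or more libraries (right) for each library, at 5 ages. Circles are circRNAs that share an end and squares the other kept circRNAs, and the grey line joins the values of 1 library. The circles lie above the squares in all 5 libraries in each plot.

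Members of a set were often not seen side by side. At least 2 circRNAs of the set were listed in 1 library in 583 of the 1112 sets (52.4%), while the 529 others became sets only when libraries were pooled. Counted within single libraries, 381 of 2362 kept circRNAs shared an end at 4.5 hpf (16.1%, 14.7 to 17.7) and 457 of 2569 at 8 hpf (17.8%, 16.3 to 19.3). At 24, 48 and 72 hpf the numbers were 172 of 1561 (11.0%), 223 of 2110 (10.6%) and 216 of 1915 (11.3%). Among kept circRNAs with at least 5 reads in all, 425 of 2420 shared an end with another such circRNA (17.6%). With partners of any read count, 72 of the 219 kept circRNAs with 20 or more reads in a library shared an end (32.9%, 26.7 to 39.5). Of the 3086 with 2 reads in all, 765 did (24.8%).

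Usage within a set was examined in the 492 sets with at least 10 reads over the 5 libraries, which held 1063 of the 2182 circRNAs. The remaining 620 sets had fewer reads, and 59 sets had exactly 10 reads and 58 exactly 9. The dominant circRNA of a set at a stage was its single most-read circRNA there, and a tie gave none. Over all libraries together, the most-read circRNA held a median of 73.5% of the reads of its set (quartiles 58.3 and 85.1), with 90% or more in 77 sets and 50% or less in 68.

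At each stage 1 circRNA usually held most of the reads of its set, which for a pair is fixed at 50% or more by the measure. In sets with at least 10 reads in the library, the most-read circRNA held a median of 83.3% (144 sets), 81.8% (124 sets), 85.2% (48 sets), 97.3% (64 sets) and 96.0% (59 sets) from 4.5 to 72 hpf. It was the only circRNA of its set listed there in 34.0%, 30.6%, 41.7%, 48.4% and 44.1% of those sets. Where at least 2 were listed, the medians were 76.9%, 73.6%, 70.3%, 70.6% and 80.0%. In sets of 3 or more circRNAs they were 65.8%, 70.9%, 62.5%, 86.4% and 76.0%. The number of reads a set had at a stage sets how small a second circRNA can be and still be listed, and its part in these shares was not tested.

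**Figure D3:**
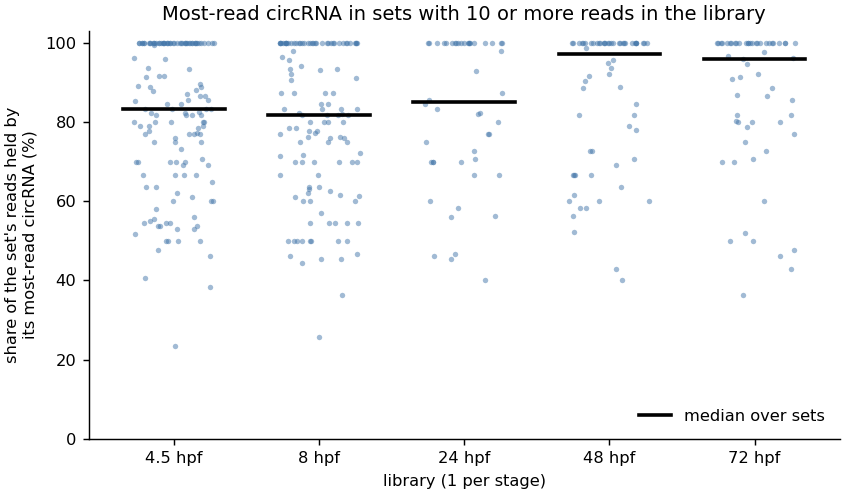
Share of the reads of a set held by its most-read circRNA (percent), for sets with at least 10 reads in the library, at each of 5 ages. Each point is 1 set, and the black bar is the median over sets, 83.3%, 81.8%, 85.2%, 97.3% and 96.0% from left to right.

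Both shorter and longer rings led their sets. Among 359 pairs with at least 10 reads and a single most-read circRNA, the shorter one led in 197 (54.9%, 49.6 to 60.1). It led in 84 of 165 pairs with a shared start (50.9%, 43.0 to 58.8) and in 113 of 194 with a shared end (58.2%, 51.0 to 65.3). The difference between the 2 kinds of pair was not tested.

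Of the 10 sets with the most reads, 6 had the same dominant circRNA at all 5 stages. They lay on chromosomes 25, 17 and 7. On chromosome 25, 32356968 to 32384589 (27621 bp) had 154, 55, 102, 165 and 171 reads from 4.5 to 72 hpf. It shared its start with a ring that reached 32388905 and had 2 reads at 48 hpf, and its end with a ring starting at 32381067 that had 2 reads at 8 hpf. That second start was itself the start of a strong ring, 32381067 to 32393794 (12727 bp), with 86, 28, 66, 76 and 90 reads. So these 2 abundant rings overlapped without a common end, and the rare ring of 3522 bp between them used 1 end of each. The 2 abundant rings moved alike in the first step, the longer one lower at 8 than at 4.5 hpf by 3.24-fold (2.37 to 4.50) and the shorter by 3.56-fold (2.30 to 5.66), as reads per depth.

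On chromosome 17, 48844580 to 48934121 (89541 bp) had 209, 136, 67, 24 and 55 reads. A ring from the same start to 48943281 was listed at 24 and 72 hpf alone, with 5 and 7 reads, which was 6.94% and 11.3% of the set. The other set on this chromosome, with the start at 39886865, was led by a ring of 5670 bp with 118, 33, 56, 56 and 59 reads. Its shorter partner, 39886865 to 39890006, had 2 reads at 72 hpf. On chromosome 7 the ring from 15515797 to 15533024 had 231, 23, 10, 9 and 3 reads and was 11.6-fold lower per depth at 8 than at 4.5 hpf (7.57 to 18.7). Its partner, to 15526778, had 5 reads at 8 hpf, 17.9% of the set there.

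Other sets of many reads were listed in only some libraries. The start at 25714875 on chromosome 22 was used at 4.5 hpf alone, with 830 reads to 25722913 and 3 reads to 25734396. The start at 31968704 on chromosome 3 had 202 reads at 24 hpf and 254 at 72 hpf to 31994174, and was not listed at 48 hpf. Its second ring, to 31974149, had 10 reads at 72 hpf, 3.79% of the set. On scaffold KN150127.1 the start at 6486 was used at 48 hpf alone, with 1275 reads to 9445 and 69 reads to 13009.

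The position used by most circRNAs was the start at 57867011 on chromosome 1, with 9 rings of 6371 to 93992 bp. In the blastula library 7 of the 9 were listed, with 11, 11, 9, 6, 5, 3 and 2 reads. The 2 leading rings there, to 57885352 and to 57938311, held 23.4% each, so no ring was dominant. At 24 hpf they had 6 and 5 reads of 13, at 72 hpf 8 and 3 of 11, and at 48 hpf none of the 9 was listed. Some of the variable ends came in close pairs, 57938195 and 57938311, and 57891625 and 57891693. The second of these pairs was divided between libraries, with 3 reads to 57891693 at 4.5 hpf and 3 reads to 57891625 at 8 hpf.

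The other positions named for their number of rings had 5 or 6. The end at 35813920 on chromosome 10 had 6, all listed at 8 hpf, where the reads were 8, 7, 6, 5, 3 and 2 and the leading ring held 25.8%. The end at 28005792 on chromosome 1 had 5 rings and was the most read of these, led at every stage by the shortest, from 28003179 (2613 bp), with 21, 24, 14, 34 and 45 reads. Its share of the set was 53.8%, 100%, 70.0%, 79.1% and 80.4% at the 5 stages in order. The start at 56144076 on chromosome 2 was led by its ring to 56200735 at 4.5 hpf (5 of 9 reads) and by its ring to 56160334 at 8, 24, 48 and 72 hpf (2, 9, 5 and 10 reads). The end at 20482592 on chromosome 5 had a different leading ring at 24, 48 and 72 hpf, with 2, 3 and 11 reads, counts too low to order its rings.

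Rings of a network could also be linked through several ends, as in 2 networks chosen after their values were seen. The largest network lay on chromosome 7, 35393916 to 35486693, with 10 rings made from 5 starts and 5 ends and 23, 21, 0, 2 and 0 reads from 4.5 to 72 hpf. Its end at 35410254 was joined to 4 starts. Of these, 35405682 was used with 9 reads at 4.5 hpf and not listed at 8 hpf, and 35403291 with 4 reads and then 9. On chromosome 8, 23871759 to 23973856, 7 rings had 40, 20, 7, 4 and 0 reads. There the start at 23886084 gave a short ring of 985 bp with 15, 2, 0, 2 and 0 reads and a ring of 52581 bp with 14, 14, 3, 2 and 0. These sets were read mainly at 4.5 and 8 hpf.

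The dominant circRNA differed between at least 2 stages in 286 of the 452 sets that had a dominant circRNA at 2 or more stages, 63.3% (58.6 to 67.7). Most of these switches rested on few reads. Of the 286, 188 had fewer than 20 reads in the set, and in 169 the dominant circRNAs were never listed in the same library. Where the 2 rings of a pair are never listed together, each leads alone at its own stage. A different dominant circRNA is then fixed in advance by pooling the libraries, so the 63.3% is not a measured rate of switching. Among sets with at least 20 reads 98 of 203 switched (48.3%), and among those with at least 10 reads in each of the stages compared 22 of 102 did (21.6%). Without the 4.5 hpf library the number was 161 of 290 sets, and without the 8 hpf library 153 of 276. Of the 52 sets with a dominant circRNA at all 5 stages, 13 switched and 39 kept it throughout.

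Overlap without a shared end served as the comparison, chosen after the data were seen. Taken pair by pair, the dominant circRNA of 2 kept circRNAs that share an end differed between stages in 348 of 625 pairs (55.7%). In pairs that overlap but share neither end it differed in 423 of 628, 67.4%. Pairs of 1 locus share circRNAs, and this difference was not tested. Of the pairs with at least 10 reads, 70.2% of those sharing an end and 55.6% of the others were listed together in some library. A pair never listed together always counts as different, so how often pairs were listed together enters both shares. Its part in the difference was not tested.

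By pair of stages, the share of sets with a different dominant circRNA was 40.5% between 4.5 and 8 hpf (34.3 to 46.9, 247 sets) and 39.3% between 8 and 24 hpf (32.3 to 46.6, 191 sets). It was 32.9% between 24 and 48 hpf (25.7 to 40.8, 158 sets) and 30.7% between 48 and 72 hpf (24.0 to 38.1, 176 sets). Between the ends of the series, 4.5 and 72 hpf, it was 41.1% (32.9 to 49.7, 141 sets). With at least 10 reads in each library these values were 14.5% of 62 sets, 10.7% of 28, 4.55% of 22, 6.67% of 30 and 11.1% of 18. The intervals of the neighbouring steps overlap. They take sets as independent units, though sets share circRNAs and are not replicates of a stage. They therefore cannot compare the steps, and the differences were not tested.

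A switch was called supported where the dominant circRNA of 1 stage had an exact 95% interval above 50% of the reads of the 2 rings compared, and below 50% at the other stage. An unlisted ring was given 1 read, the largest count below the lowest one listed. Of the 452 sets, 8 met this (1.77%, 0.767 to 3.46), named A to H by their total reads. In each supported comparison the later dominant ring was not listed at the earlier stage. So no supported switch had both rings counted at both stages, and each rests on absence meaning at most 1 read. In pair terms it was 12 of 625 pairs that share an end (1.92%), against 62 of 628 overlapping pairs that share none (9.87%). The 2 kinds of pair differ in how often they were listed together (70.2% and 55.6%), and pairs share circRNAs. The difference in supported switches was not tested. Without the 8, the 48 or the 72 hpf library 5 sets met the criterion each time. With an unlisted ring at 0 reads 26 sets met it, and with 99% intervals 5 did, without sets E, G and H. A shared start was the common end in 7 of the 8. The later dominant ring was the shorter in 6 and the longer in 2, taking the first supported pair of stages of each set. This split depends on that choice. Set A is among the 6 through 8 and 48 hpf alone. Its dominant ring at 72 hpf was longer than those at 8 and 48 hpf, and those comparisons were supported too. In set C, also among the 6, the rings differed by only 12 bp. Sets E and H, both among the 6, overlap in the genome.

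Set A, on scaffold KN150127.1 with the start at 3657, had a different dominant ring at 8, 48 and 72 hpf. The ring to 13394 (9737 bp) had 19 of 31 reads at 8 hpf, the ring to 6633 (2976 bp) had all 112 reads at 48 hpf, and the ring to 22829 (19172 bp) had 565 at 72 hpf, 91.0% of the set. All 3 differences were supported, and at 24 hpf the ring to 22829 alone was listed, with 3 reads. The ring to 13394 was not listed at 24 and 48 hpf. It was listed again at 72 hpf with 56 reads, 9.02% of the set, beside the ring to 22829. A ring of 388 bp from the same start, to 4045, fell outside the span limits. It had 22, 4398, 4, 129 and 1312 reads from 4.5 to 72 hpf, more than the kept rings of set A together in each library. With this ring counted, the start at 3657 would have the same dominant ring at all 5 stages. The switch of set A thus holds only within the span limits, and switches were not counted with all spans.

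In sets B and C the variable ends lay close together. Set B, on chromosome 8 with the start at 16576587, had 63 reads at 8 hpf and 35 at 24 hpf to 16577246, and 15 reads at 72 hpf to 16577252, 6 bp further. Set C, on chromosome 22 with the start at 20112062, had 11 reads at 8 hpf to 20121528, and 48 at 24 hpf and 3 at 48 hpf to 20121516, 12 bp nearer. In neither set were the 2 rings listed in the same library. The 2 ends of set C were also used with another start, 20113494, in a set of 10 reads. That start was led by its ring to 20121528 (8034 bp) at 4.5 hpf and by its ring to 20121516 (8022 bp) at 72 hpf. With each start, 20121528 was thus the earlier end and 20121516 the later one. Whether the close ends of set B, or those of set C, are 1 junction placed at 2 positions was not determined.

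Sets D, F and H had 2 rings each, with variable ends 23554, 37599 and 57119 bp apart, and never in the same library. Set D, on chromosome 5 with the start at 31616110, had 17 reads at 48 hpf to 31655894 (39784 bp) and 24 reads at 72 hpf to 31632340 (16230 bp). Set F, on chromosome 19 with the start at 3796699, had 23 reads at 8 hpf to 3846562 (49863 bp) and 14 at 48 hpf to 3808963 (12264 bp). Set H, on chromosome 3 with the end at 7256646, had 10 reads at 4.5 hpf from 7162323 (94323 bp) and 15 at 48 hpf from 7219442 (37204 bp). In all 3 the later ring was the shorter one, and each ring was listed at 1 stage only.

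Set E, with the start at 7162722 on chromosome 3, lay inside the longer ring of set H (7162323 to 7256646). Sets E and H are thus not separate places in the genome. Its ring to 7228268 (65546 bp) was the one listed at 4.5, 8 and 24 hpf, with 6, 2 and 8 reads. It was followed by a ring to 7196146 (33424 bp) with 4 reads at 48 hpf and a ring to 7171872 (9150 bp) with 18 reads at 72 hpf. The span of the listed ring thus became shorter at each of the last 2 stages, with a supported difference between 24 and 72 hpf. Set G, on chromosome 2 with the start at 29000222, was the only one of the 8 besides A with its supported rings listed together. Its ring to 29013972 (13750 bp) had 10 and then 2 reads at 4.5 and 8 hpf, and its ring to 29014645 (14423 bp) was not listed and then had 10. Another ring, to 29016210, had 3 reads at 4.5 hpf. The share of the former was 90.9% (58.7 to 99.8) and then 16.7% (2.09 to 48.4) of the reads of these 2 rings.

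**Figure D4:**
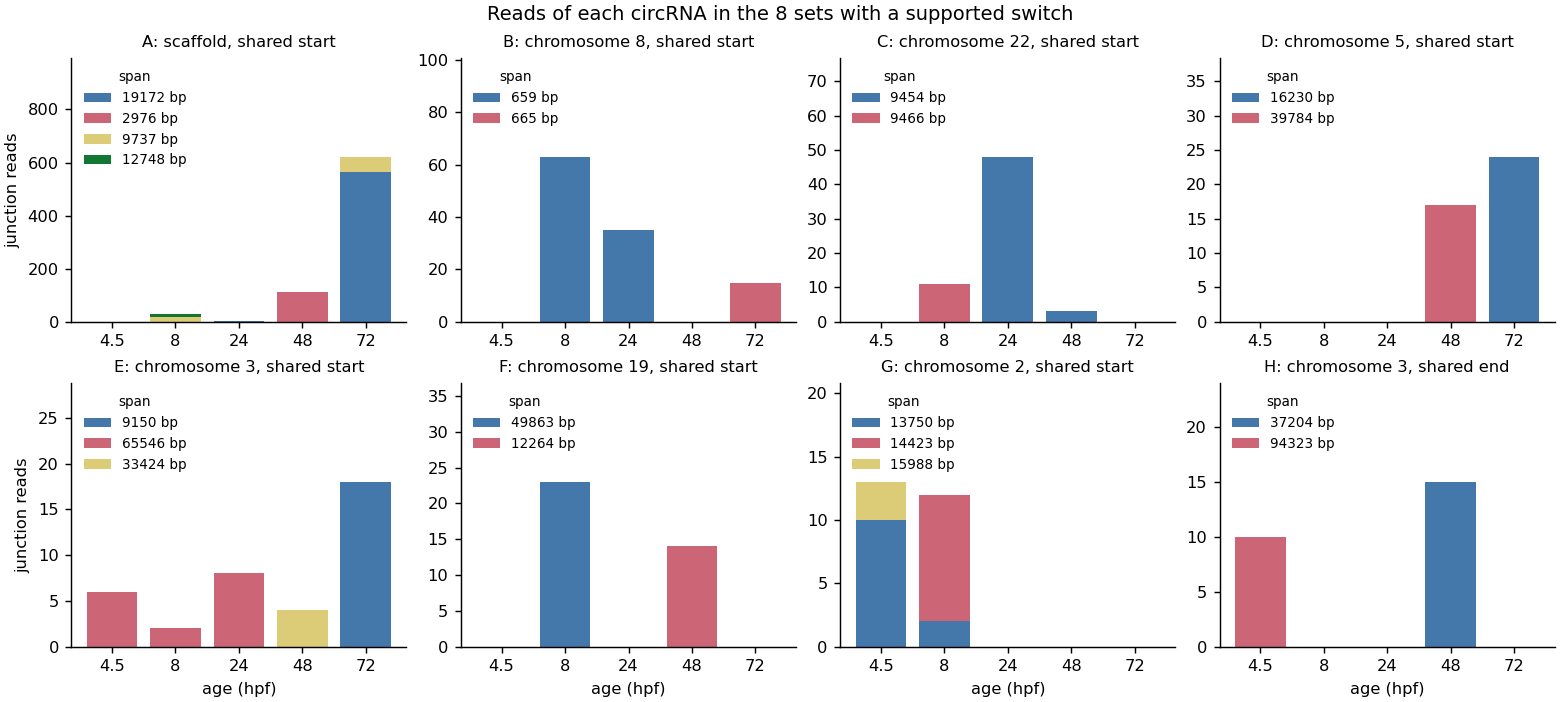
Junction reads (stacked bars, linear axes that differ between plots) of each circRNA in sets A to H at 5 ages in hpf, 1 library each. Colours stand for the genomic span of the circRNA, given in each legend. In sets B, C, D, E, F and H every bar has 1 colour, since the rings were never listed in the same library.

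Pairs of rings that were listed together in at least 3 libraries gave a direct view of their ratio. They were picked after their values were seen. Such a pair was found in 13 sets with at least 10 reads, and 1 pair was taken per set. Of the 13 pairs, 2 had each ring listed at all 5 stages. Other such pairs in these sets were left out, as with the ring from 27984490 at the end at 28005792 on chromosome 1. On chromosome 2 the start at 58761121 was joined to 58761784 and, 26 bp nearer, to 58761758. The former had 40, 20, 32, 47 and 47 reads and the latter 11, 5, 7, 6 and 4. The former held 78.4% at 4.5 hpf (64.7 to 88.7) and 92.2% at 72 hpf (81.1 to 97.8), and the intervals of the 5 stages overlapped.

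The other pair listed throughout shared the end at 34171543 on chromosome 14. The ring from 34166942 (4601 bp) had 51, 30, 27, 8 and 13 reads and the ring from 34162408 (9135 bp) had 16, 6, 8, 5 and 12. The shorter ring held 83.3% at 8 hpf (67.2 to 93.6) and 52.0% at 72 hpf (31.3 to 72.2), and again the intervals overlapped. So in the 2 pairs present at all stages the same ring led throughout. Differences between stages in these shares were not tested directly, and overlap of intervals does not show that 2 stages are alike.

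In 3 of the 13 pairs some stages had intervals that did not overlap with an unlisted ring at 0 reads, and in 1 of them also with it at 1 read. That one shared the end at 32106188 on chromosome 2. Its short ring, from 32105341 (847 bp), had 7, 16, 12, 19 and 14 reads, and its longer ring, from 32095664 (10524 bp), had 14, 5, 5, 0 and 0. The short ring thus held 33.3% at 4.5 hpf (14.6 to 57.0), 76.2% at 8 hpf (52.8 to 91.8), 70.6% at 24 hpf (44.0 to 89.7) and all listed reads at 48 hpf (82.4 to 100) and 72 hpf (76.8 to 100). The interval at 4.5 hpf overlapped that at 8 hpf and lay below those at 48 and 72 hpf, which began at 75.1% and 68.1% with the longer ring at 1 read. It was not a supported switch, since the interval at 4.5 hpf includes 50%.

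The other 2 pairs kept their leading ring, and the intervals of their stages overlapped once an unlisted ring was given 1 read. At the end at 28005792 on chromosome 1, the ring from 28003179 held 67.7% of the reads of its pair with the ring from 27968661 at 4.5 hpf (48.6 to 83.3) and 100% at 8 hpf (85.8 to 100). At the end at 28460457 on chromosome 9, the ring from 28456306 had 4, 18, 20, 46 and 37 reads and the ring from 28457670 had 0, 11, 0, 13 and 10. The former held 62.1% at 8 hpf (42.3 to 79.3) and 100% at 24 hpf (83.2 to 100), and with the second ring at 1 read the interval at 24 hpf began at 76.2%.

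A further pair, with the start at 1940067 on chromosome 20, appeared only from 24 hpf. Its rings to 1959582 and 1959444, 138 bp apart, had 3, 14 and 42 reads and 4, 10 and 18 reads at 24, 48 and 72 hpf. The former held 42.9% (9.90 to 81.6), 58.3% (36.6 to 77.9) and 70.0% (56.8 to 81.2), so the leading ring changed from 24 to 48 hpf while the 3 intervals overlapped. On chromosome 10 the start at 24219736 was read at 4.5, 8 and 24 hpf alone, with 22, 28 and 10 reads to 24256336 and 22, 11 and 3 to 24229116. These 2 rings were tied at 4.5 hpf.

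**Figure D5:**
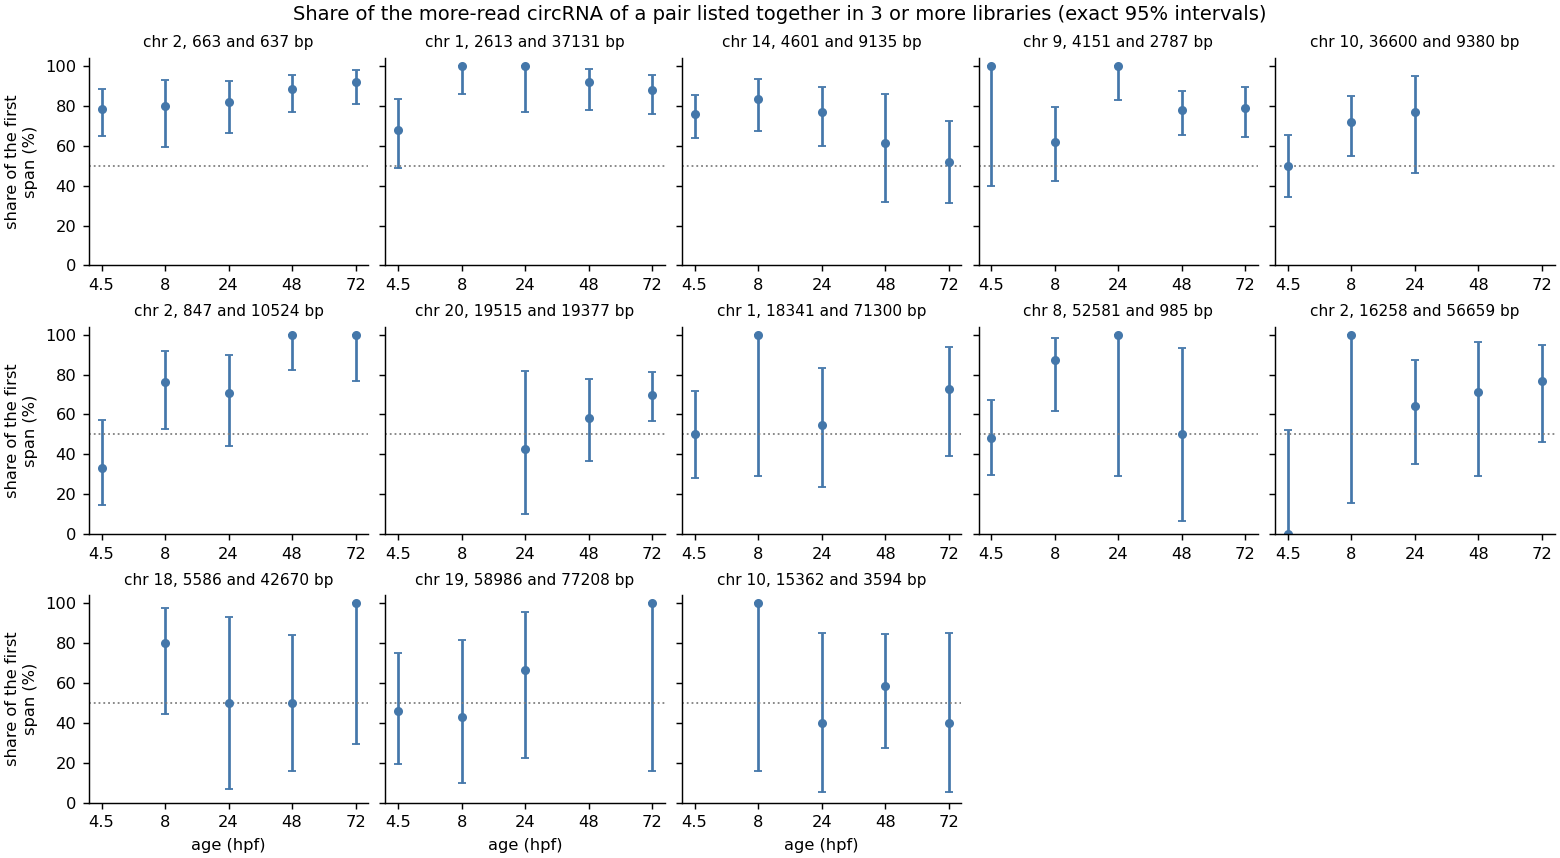
Share in percent of the more-read ring among the reads of 2 rings that share an end, for the 13 pairs listed together in at least 3 libraries, by age in hpf. Titles give the chromosome and the spans of the more-read and the less-read ring, bars are exact 95% intervals with an unlisted ring at 0 reads, the dotted line marks 50%, and an age with no point had no reads. In the plot of chromosome 2 with spans of 663 and 637 bp the points run from 78.4% to 92.2%, and in the plot of chromosome 2 with spans of 847 and 10524 bp from 33.3% to 100%.

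Abundance of single circRNAs was compared between consecutive stages. A circRNA with at least 10 reads over 2 consecutive libraries was called at a 2-fold change in reads per depth, and an unlisted ring was set at a floor of 3 reads per library, so its ratio is a bound. A ring that passed the read minimum in 1 library and was unlisted in the other was therefore always called per depth. With 10 reads and none, the bound was 3.86-fold lower from 4.5 to 8 hpf and 2.82-fold lower from 8 to 24 hpf. Such calls are fixed by listing, and their part in the shares and medians was not tested. From 4.5 to 8 hpf, 29 of 181 circRNAs with a shared end were higher (16.0%) and 95 lower (52.5%), beside 19.0% and 50.0% of all 442 kept circRNAs tested, which include them. From 8 to 24 hpf, 21 of 117 were higher (17.9%) and 55 lower (47.0%), beside 23.3% and 45.3% of 309. From 24 to 48 hpf, 38 of 89 were higher (42.7%) and 18 lower (20.2%), beside 43.9% and 22.1% of 280. From 48 to 72 hpf, 29 of 106 were higher (27.4%) and 26 lower (24.5%), beside 33.8% and 21.5% of 349.

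The median log2 ratio of the circRNAs with a shared end was -1.09, -0.93, 0.66 and 0.19 at the 4 steps, beside -0.99, -0.93, 0.71 and 0.32 over all kept circRNAs tested. Among the other kept circRNAs alone, 21.1%, 26.6%, 44.5% and 36.6% were higher and 48.3%, 44.3%, 23.0% and 20.2% lower, with median log2 ratios of -0.80, -0.76, 0.79 and 0.42. The circRNAs with a shared end thus had the lower share of higher calls and the lower median at each of the 4 steps. This difference was not tested, and the steps share libraries. With at least 20 reads their share of higher calls was not the lower one at each step. It was then 12.7% beside 12.5% of all kept from 4.5 to 8 hpf and 44.4% beside 40.5% from 24 to 48 hpf. From 8 to 24 hpf it was 18.4% beside 29.8%, and from 48 to 72 hpf 29.3% beside 32.9%. The split depended on the scaling. Higher calls made up 27.6% of the calls from 8 to 24 hpf per depth and 67.2% (41 higher, 20 lower) relative to the libraries' total junction reads, a scaling that takes out a log2 shift of -1.12. With it 37.2% of all kept circRNAs tested were higher and 14.6% lower. From 24 to 48 hpf the split was 67.9% and 48.1% (25 higher, 27 lower), with a shift of 0.71, beside 31.4% higher and 29.6% lower over all kept. From 48 to 72 hpf it was 52.7% and 38.5% (20 higher, 32 lower), with a shift of 0.53, beside 23.8% and 29.2% over all kept. From 4.5 to 8 hpf it was 23.4% per depth and 33.6% (37 higher, 73 lower) with TMM, which removes a shift of -0.54, beside 23.8% and 37.3% over all kept. Relative to total junction reads it was 23.0% at that step. TMM gave 31.6%, 60.4% and 47.2% from 8 to 24, 24 to 48 and 48 to 72 hpf, nearer to the values per depth. Of the 24580 junction reads at 8 hpf, 4398 and 4025 belonged to left-out circRNAs under 500 bp on scaffold KN150127.1. Their part in the shift was not tested.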

How the data were processed

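Junction reads were measured in 5 libraries of whole zebrafish embryos, 1 per stage by the age in the labels. The authors' deposited library tables give whole-number counts of back-splice junction reads per circRNA, not normalized, from 2 reads up, per the file headers. A deposited series table adds a score scaled by the authors to library depth (SRPBM), which gave the depth used here, and no count in it differed from the library tables (0 differences). The submitters' processing notes list BWA (0.7.5a-r405) and, with no role stated, edgeR (3.12.1); the sources used here name no circRNA caller. The span is end minus start. Python 3.11.15, numpy 2.4.6, scipy 1.17.1 and matplotlib 3.10.9 were used, with TMM from edgeR 4.0.16 in R 4.3.3. Intervals are exact 95% intervals. Those of reads cover counting error only, since each stage has 1 library. They can be too narrow even for that, since PCR copies can be counted as separate reads where no molecular identifiers mark them. Intervals over circRNAs or sets take these as independent units, which they are not where sets share circRNAs. Sets named are the 5 with most circRNAs, the 10 with most reads, the supported switches (up to 15) and the 5 most-read ones with 1 dominant circRNA at all 5 stages; others are said to be chosen after their values were seen. The circRNAs and sets were chosen with earlier results of these data known. Alternatives covered the span and chromosome limits, read minimums, tolerance of ends, single libraries left out, interval settings and scaling.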

Additional observations from a re-analysis of the deposited data

Results flagged for a closer look

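CircRNAs outside the span limits also used ends of the kept ones. Of 926 circRNAs spanning under 500 bp, 125 (13.5%) shared an end with a kept circRNA, with 10559 reads, of which 5865 and 4043 belonged to scaffold KN150127.1, 3657 to 4045 and 15984 to 16405. Of 316 spanning over 100000 bp, 99 (31.3%) did, with 1188 reads. The most read of these were chromosome 15, 46764879 to 46940981, with 197, 31, 0, 17 and 58 reads from 4.5 to 72 hpf, and chromosome 13, 51518779 to 51663458, with 66, 52, 44, 44 and 30. These circRNAs are in none of the sets and are not among the circRNAs called above. Their reads do enter the scalings by total junction reads and by TMM. The ring of 388 bp, 3657 to 4045, was also set beside set A.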

How the results depend on the processing

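With 2 reads as the lowest listed count, a second ring of a set is seen only where the set is well read, which limits each statement on a missing ring. The 2182 circRNAs and 1112 sets fell to 425 and 210 with at least 5 reads per circRNA, and to 227 and 113 among circRNAs listed in at least 2 libraries, as fewer circRNAs then enter. Within single libraries 381, 457, 172, 223 and 216 circRNAs shared an end from 4.5 to 72 hpf. All spans, chromosome 4, scaffolds, ends within 5 bp, 1 base added to the span and networks in place of sets kept these counts within 1.5 times.

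The 286 switching sets became 98 with at least 20 reads in the set and 22 with at least 10 reads in each stage compared, and ran from 153 to 217 with 1 library left out. The 8 supported switches became 26 with a ring that was not listed set at 0 reads and 5 with 99% intervals, where sets E, G and H no longer met the criterion, and ran from 5 to 6 with 1 library left out. Merging ends within 5 bp left the 8 supported sets named in place. That setting could not join their dominant rings, whose variable ends lay 6 bp apart in set B, 12 bp in set C and further in the others. It therefore says nothing on the close ends of sets B and C. The median share of the most-read ring became 62.5% at 24 hpf and 76.0% at 72 hpf in sets of 3 or more circRNAs, and 70.6% at 48 hpf where at least 2 were listed; the cause was not tested. The difference in mean reads turned to -0.0755 with at least 5 reads and to -0.0368 without scaffolds, while the differences in span and in recurrence kept their sign under the alternatives run.

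At 4-fold the calls were 11 higher and 48 lower of 181 from 4.5 to 8 hpf (7.92% and 24.9% of all kept), 11 and 22 of 117 from 8 to 24 (12.6% and 16.5%), 18 and 5 of 89 from 24 to 48 (21.4% and 10.7%), and 16 and 8 of 106 from 48 to 72 (20.3% and 8.02%). With at least 20 reads they were 9 and 34 of 71 (12.5% and 49.4% of all kept), 7 and 16 of 38 (29.8% and 41.2%), 16 and 9 of 36 (40.5% and 23.3%), and 12 and 8 of 41 (32.9% and 16.1%). Scaled to total junction reads they were 41 and 20 from 8 to 24 hpf (37.2% and 14.6% of all kept) and 25 and 27 from 24 to 48 (31.4% and 29.6%). No paired analysis was possible because each stage has 1 library and the labels give no replicate numbers.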
